A study of Zea mays with 6 samples.

Results

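The set comprised 99 maize gene models whose transcript level was higher after a first dehydration than in watered leaves, and higher again after the third dehydration than after the first, and for which the deposited gene table gave no informative name. A gene entered when its mean log2(FPKM + 1) was at least 1 unit higher in S1 than in W and at least 1 unit higher in S3 than in S1, when both S1 libraries lay above both W libraries and both S3 libraries above both S1 libraries, and when its description was blank, a placeholder, or the words hypothetical or uncharacterized. FPKM is the number of sequenced fragments scaled by transcript length and library size, and 1 unit of log2(FPKM + 1) is close to a doubling except in genes of low level. Of 39634 listed genes, 163 (0.411%) met the numeric part of the rule, and 103 of these carried no informative description. A fixed list of 7 genes was then left out, of which 4 had met all other conditions, and 99 remained. The description read hypothetical protein in 62 members, putative uncharacterized protein in 8, and was a placeholder in 29. The members were chosen by these FPKM values, so differences between W, S1 and S3 in these genes are descriptions and carry no test.

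The samples were leaves of seedlings of the maize inbred line B73, with 2 libraries per condition. W plants were watered. S1 plants were air-dried once for 2 h, and S3 plants 3 times for 2 h with 22 h of full re-hydration between treatments. By the study's methods the seedlings were about 2 weeks old, their roots had stood in water overnight, and several plants were used per treatment point, without a statement of how many went into each library. The sample labels give growth rooms at 22 °C with a photoperiod of 12 h, whereas the methods name a greenhouse. S3 plants were also sampled later after their first drying than S1 plants, so the number of dehydrations and the time since the first cannot be told apart. In these bulk samples, a change in the share of a cell type and a change in RNA per cell cannot be told apart either.

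Plant cells that lose water accumulate the hormone abscisic acid (ABA). It binds receptors that block certain protein phosphatases of class 2C (PP2C), and so releases SnRK2 kinases that activate bZIP transcription factors. NAC and NF-Y factors, late embryogenesis abundant proteins, sugars and lipids of the cuticle belong to the known responses downstream. The label "dehydration stress memory" is used where a gene responds differently to a repeated stress than to the first. The members met the rule on FPKM given above, which is not the study's own assignment of genes to memory classes.

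One member, GRMZM2G179462, had the largest S3 minus W difference of the set and was measured in the study by real-time PCR. The primer pair of that assay is shown since it defines which transcript was followed, written 5′ to 3′ in lower case:
GRMZM2G179462 primer 1: gacgttcctggaggtgct
GRMZM2G179462 primer 2: agccgtagcgaaggaagac
The primers were 18 and 19 bases long, with a GC content of 61.1% and 57.9%.

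All libraries held leaf RNA. Of 24 genes described as chlorophyll-binding proteins, the small subunit of Rubisco or enzymes of C4 photosynthesis, 23 exceeded 1 FPKM, and none was listed at 0. Their summed level was 25455 to 41264 FPKM in W, 30350 to 30613 in S1 and 7340 to 11676 in S3, so the S3 libraries held the lowest levels of these genes. Of 33 kernel genes (zeins, oleosins, globulins) 23 were listed at 0 in every library, and the summed kernel level was 17.1 to 25.3 FPKM. Of 26 pollen genes 14 were listed at 0, with a summed level of 56.1 to 68.3 FPKM. Whether the lower level of leaf genes in S3 had a part in the results on the members was not tested. The FPKM values kept no read numbers, but in genes under 0.1 FPKM they stepped in ratios of whole reads, and the depth that these steps imply lay between 0.953 and 1.14 times that of the first W library. In the other libraries 65.0% to 89.3% of such genes lay within 0.02 log2 units of a ratio of whole numbers up to 6 to the first W library, where this tolerance covers 19.9% of the range. Depth on the scale of the deposited values was therefore nearly even.

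The median member was near the middle of the expressed genes in watered leaves and ranked among the more abundant after the third dehydration. The S3 means of members ran down to 4.48 FPKM. The median level was 2.09 FPKM when watered, 10.8 upon S1 and 40.2 upon S3, compared with 2.67, 2.84 and 3.17 FPKM over all genes above 0. The percentile of that median among expressed genes was 47.2, 70.3 and 90.5. Summed over the set, the level was 468 and 433 FPKM in the W libraries, 2156 and 1765 in the S1 libraries, and 9424 and 8719 in the S3 libraries. The share of all FPKM that the members held was 0.0696% and 0.0761% when watered, 0.352% and 0.270% upon S1, and 1.64% and 1.42% upon S3. Of the S3 sum, the 5 members of highest S3 level held 40.0% in the first library and 32.4% in the second. In watered leaves 30 members were under 1 FPKM in both libraries and none exceeded 100 FPKM, whereas 17 members were above 100 FPKM in both S3 libraries.

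On the log2(FPKM + 1) scale the first and second steps were of similar size over the set. This depends on the pseudocount: the medians were 2.11 and 1.62 with 0.1 added to FPKM in place of 1, and 1.31 and 1.41 with 2 added. The median difference was 1.55 log2 units between S1 and W (range 1.00 to 5.76) and 1.47 between S3 and S1 (range 1.01 to 7.59), which gave a median of 3.29 between S3 and W (range 2.09 to 8.89). In the 60 genes with a description that met the same numeric rule the medians were 1.60, 1.66 and 3.58. The first step was the larger in 55 members and the second in 44, and in 45 the 2 steps lay within 0.5 of each other. Only 10 members exceeded 2 log2 units in both steps, out of 27 that did so in each step. All 99 passed the filter on low values used in the fit across genes, and the SE of their differences in that fit was 0.14 to 0.85 log2 units, with a median of 0.25 (n = 2 libraries per condition). The SE is pooled over all conditions, so it is the same for each difference of a gene. Among all genes tested the median difference was -0.01 in S1 relative to W, 0.12 in S3 relative to S1 and 0.17 in S3 relative to W. With median-of-ratios scaling, the latter medians were -0.01 and 0.03, and the members' median second step was 1.34 in place of 1.47.

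**Figure D1:**
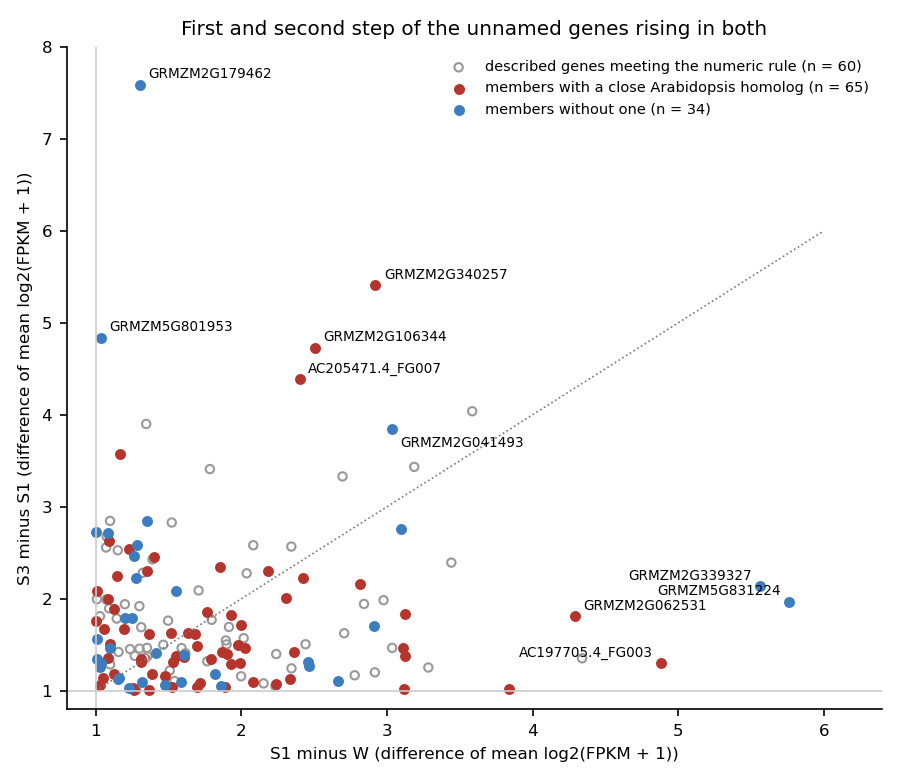
Difference between S1 and W (x axis) and between S3 and S1 (y axis), both in units of mean log2(FPKM + 1). Points are the 65 members with a listed close Arabidopsis homolog, the 34 with none listed, and 60 described genes that met the same numeric rule. Grey lines mark the thresholds of 1 and the dotted line equal steps. Most members lie near the corner, GRMZM2G179462 stands alone at a second step of 7.59, and GRMZM5G831224 and GRMZM2G339327 at first steps of 5.76 and 5.56.

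As background, limma called 1511 of 20135 genes tested (7.50%) higher and 309 (1.53%) lower in S1 against W, 1881 (9.34%) higher and 1842 (9.15%) lower in S3 against S1, and 2711 (13.5%) higher and 1735 (8.62%) lower in S3 against W, at an adjusted p of at most 0.05 and a difference of at least 1 log2 unit. The split of S3 against S1 turned to 1556 higher and 1986 lower with upper-quartile scaling and to 1479 and 2100 with median-of-ratios scaling, and that of S3 against W became 2043 and 2120 with the former and 2192 and 2019 with the latter. The genes called lower in S1 numbered 141 without the first W library and 192 without the second S1 library. Of the 99 members, 85 were called higher between W and S1, 95 between S1 and S3 and 99 between W and S3, counts which follow in large part from how the members were chosen. The first of these was 52 without the first S1 library. The 4 members not called in S3 against S1 were GRMZM2G062531, GRMZM2G305066, GRMZM5G834001 and AC197705.4_FG003.

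The threshold cut through a continuous range of genes. Just inside the threshold on the first step were GRMZM5G806182, GRMZM2G055809 and GRMZM2G048806, at 1.00, 1.00 and 1.01 log2 units, and just outside it were GRMZM2G099481, GRMZM2G079583 and GRMZM2G362298, at 0.999, 0.998 and 0.990. Just inside the threshold on the second step were GRMZM2G061932, GRMZM2G090584 and GRMZM2G143640, each at 1.01, and just outside it were GRMZM2G154752, GRMZM2G160231 and GRMZM5G871336, at 0.990, 0.988 and 0.968. A pseudocount of 0.1 in place of 1 gave 210 genes, among them all 99 members, and a pseudocount of 2 gave 61, all of them members. A further 3 unnamed genes passed both thresholds but had overlapping libraries. In 4 members the lowest S1 library was less than 1.5 times the highest W library, and in 14 the lowest S3 library was less than 1.5 times the highest S1 library. The median gap was 2.24-fold in the second step, and 3.25-fold in the first in the 96 members with a W value above 0. These gaps are ratios of FPKM without a pseudocount. At low level a step of 1 log2(FPKM + 1) unit needs a larger ratio of FPKM, so the gaps do not rank the 2 steps.

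Names could be given to many of the members from the sequence homologs in Arabidopsis that the study listed. A close homolog (E-value at most 1e-10) was listed for 65 members, of which 57 matched a protein with a name and 8 a protein of unknown function. Of the other 34 members, 13 were listed only with a weaker match, which was not used for names, and 21 had no entry in the homolog sheets used. A gene of the RefSeq table for assembly Zm-B73-REFERENCE-NAM-5.0 carried the model's identifier as a synonym for 60 members (60.6%), compared with 59.9% of the 15103 tested genes with no informative description and 92.8% of the 5032 with one. The members thus matched RefSeq about as often as other unnamed genes. In RefSeq order, 48 members had a neighbour listed in the series, in 73 pairs. No neighbour was itself a member, but members without a RefSeq gene have no place in this order and could not appear. Of the neighbours, 2 were described genes that met the numeric rule, which 0.411% of all listed genes met. By homolog, 8 members were placed with transcription regulation, 6 with transporters or channels, 6 with glycosyltransferases, sugars or the cell wall, 6 with proteolysis or ubiquitin, 5 with protein kinases or phosphatases, 4 with oxidoreductases or P450 enzymes, 4 with lipids or wax, 2 with late embryogenesis abundant proteins or chaperones, 2 with RNA or DNA binding, and 14 with other named homologs. A homolog's name is a statement on sequence, and the function of the maize protein was not measured.

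**Figure D2:**
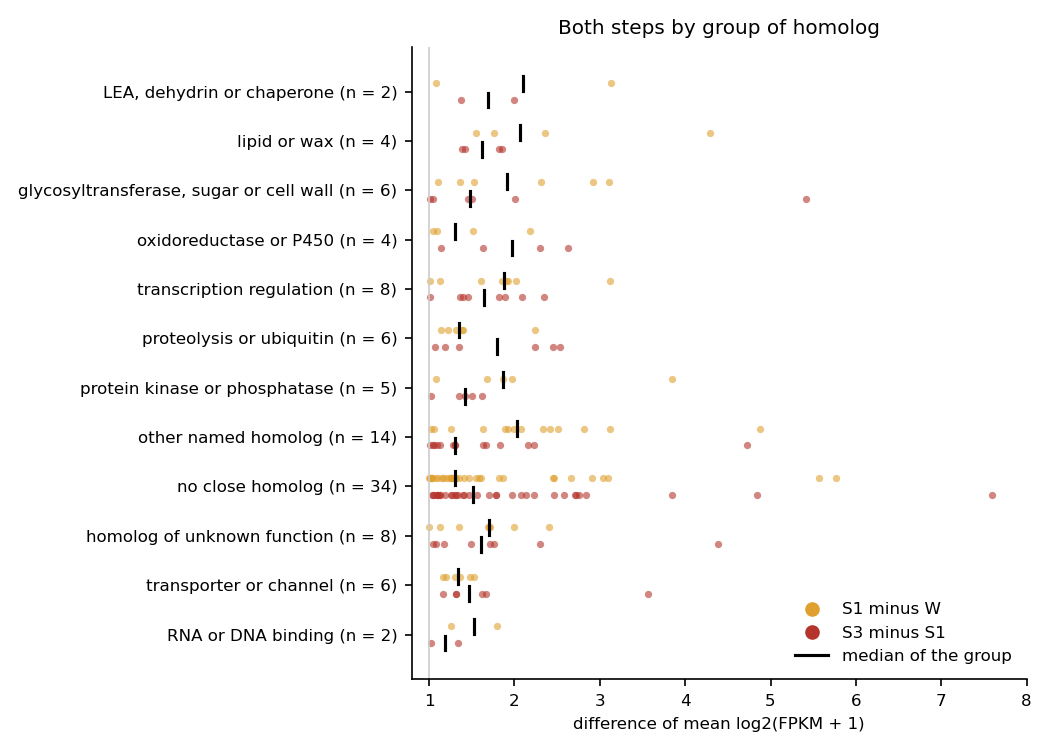
Both steps for each member, by group of homolog, in units of mean log2(FPKM + 1). Orange points give S1 minus W, red points S3 minus S1, black bars the median of the group, with the number of members in brackets. In the 4 members matched to P450 enzymes every second step exceeded the first, by little in all but GRMZM2G126505. The 34 members with no listed close homolog spread most widely, up to 7.59.

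The 8 members placed with transcription regulation had median steps of 1.88 and 1.64 log2 units and a median level of 5.43, 16.4 and 54.6 FPKM in the 3 conditions in turn. GRMZM2G011932, matched to GBF3, a bZIP protein that binds G-box sequences, was at 15.8 and 15.4 FPKM when watered, 62.8 and 59.4 upon S1, and 152 and 173 upon S3. Its libraries of each condition lay close together. The conditions do not overlap in any member, as the rule requires. GRMZM2G109627, matched to the NAC domain factor NAC047, was at 8.28 and 6.87 FPKM when watered, 26.1 and 34.1 upon S1, and 206 and 118 upon S3. GRMZM2G083347, matched to NAC083 (VNI2), a NAC protein known in Arabidopsis as a repressor of vessel development and leaf senescence, was at 10.2 and 11.8 FPKM when watered, 46.3 and 49.0 upon S1, and 145 and 122 upon S3. The remaining NAC member, GRMZM2G180328, was matched to ATAF1, a factor of the stress and ABA response in Arabidopsis. It was at 4.69 and 3.38 FPKM when watered, 9.01 and 10.9 upon S1, and 78.3 and 19.7 upon S3, so its 2 S3 libraries differed more than its S1 and W libraries did. GRMZM2G040349 matched NF-YA5, a subunit of the trimeric CCAAT-binding factor, with 1.71 and 1.05 FPKM when watered, 5.95 and 2.26 upon S1, and 19.6 and 18.8 upon S3. GRMZM2G143640, matched to a homeodomain-like regulator, was almost silent in W at 0.0266 and 0.0699 FPKM, and stood at 7.72 and 8.48 upon S1 and 17.9 and 16.8 upon S3. The last 2 of the group, GRMZM2G043348 (CIA2, a regulator of chloroplast protein import in Arabidopsis) and the Myb-like GRMZM2G049695, had second steps of 1.37 and 1.82.

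The 5 members placed with kinases and phosphatases included 4 PP2C homologs, a class of which ABA receptors block certain members. The first 3 of these were near one another in both steps. GRMZM2G437575, matched to ABI1, was at 16.1 and 10.9 FPKM when watered, 52.7 and 49.6 upon S1, and 134 and 143 upon S3. GRMZM2G001243, matched to HAB1, was at 6.94 and 5.06 FPKM when watered, 30.7 and 22.6 upon S1, and 78.0 and 74.7 upon S3. The other, GRMZM2G443509, was matched to a protein described only as of the PP2C family. It was at 6.77 and 6.82 FPKM when watered, 21.6 and 26.6 upon S1, and 61.4 and 93.0 upon S3. ABI1 and HAB1 are negative regulators of ABA signaling in Arabidopsis. GRMZM2G308615, matched to HAI3, differed in its course, with 0.0430 and 0.113 FPKM when watered, 16.3 and 12.8 upon S1, and 33.9 and 27.1 upon S3. Its first step was 3.84 log2 units and its second 1.02, the second being near the threshold. GRMZM2G146553, matched to the kinase CIPK23, which regulates potassium and nitrate transport in Arabidopsis, had the highest level of the group in W, at 29.3 and 27.7 FPKM, with 65.5 and 57.7 upon S1 and 136 and 184 upon S3.

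The P450 homologs were the only group in which all members had the larger second step on the log2(FPKM + 1) scale. They number 4, so this is a description of these genes. The 2 steps were well apart only in GRMZM2G126505. In GRMZM2G010468, GRMZM5G851862 and GRMZM5G875732 they were 2.18 and 2.30, 1.51 and 1.63, and 1.05 and 1.14. In mean FPKM the first rise of these genes was the larger, at 7.34-, 4.28- and 2.42-fold compared with 5.29-, 3.62- and 2.35-fold. GRMZM2G126505 was matched to CYP707A3, an ABA 8'-hydroxylase, the enzyme class that breaks down ABA. It was at 2.91 and 2.99 FPKM when watered, 14.3 and 3.62 upon S1, and 44.5 and 58.9 upon S3. Its S1 libraries differed widely, the lower being 1.21 times the highest W library, and its first step was 1.09 log2 units compared with 2.63 for the second. In RefSeq order its listed neighbours on chromosome 4 were GRMZM2G147780 and GRMZM2G110192. The study names GRMZM2G110192 as a homolog of NCED4, of a family of carotenoid-cleaving enzymes that includes the enzyme of ABA synthesis. The difference between S1 and W was -0.29 in GRMZM2G147780 and -0.61 in GRMZM2G110192. Between S3 and S1 it was 0.19 and 1.84. GRMZM2G010468, matched to cinnamate-4-hydroxylase, an enzyme of the phenylpropanoid pathway, was at 1.39 and 1.21 FPKM when watered, 11.1 and 7.96 upon S1, and 52.9 and 48.0 upon S3. GRMZM5G851862 (CYP76C2) had 26.8 and 13.3 FPKM in S3 and GRMZM5G875732 (CYP71A25) had 19.4 and 17.0, from W levels of 0.839 and 1.74 and of 3.36 and 3.07.

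**Figure D3:**
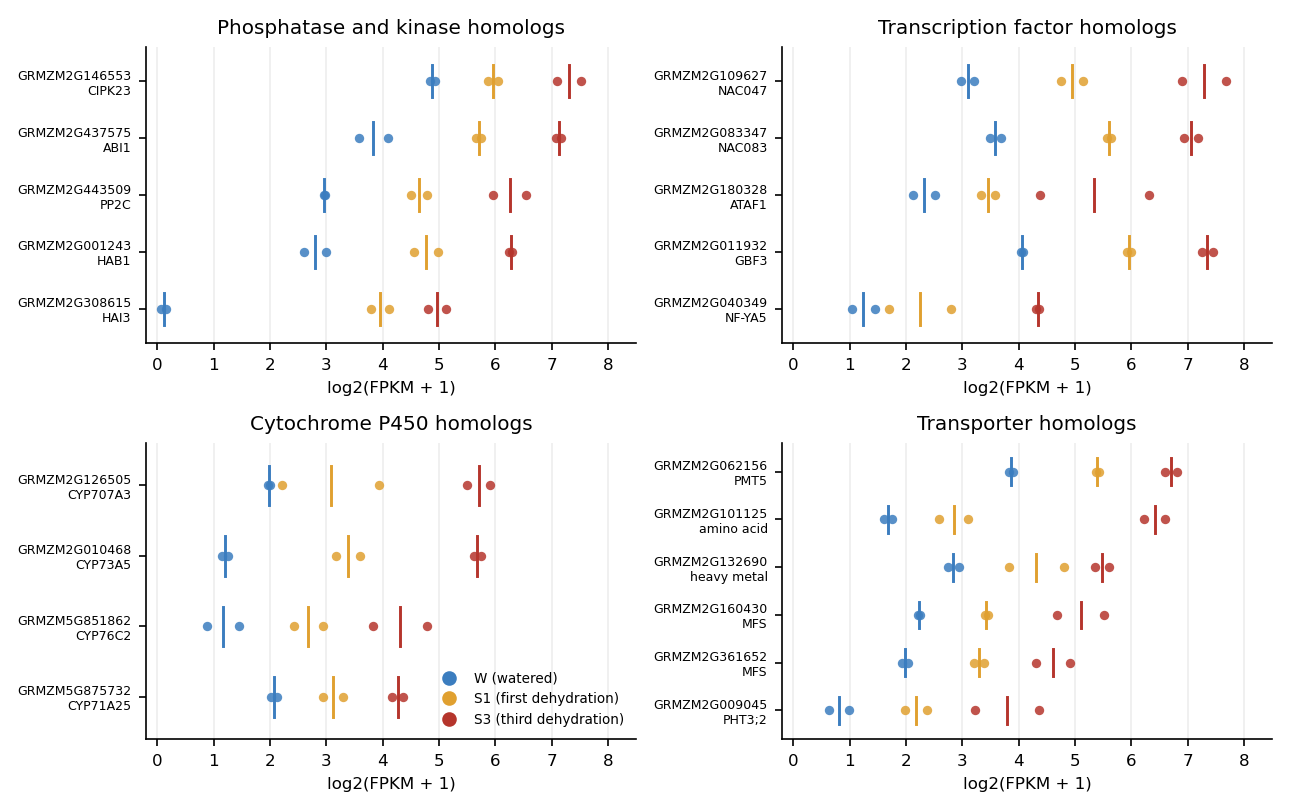
Values of log2(FPKM + 1) in each library (points) with the mean of the 2 libraries (bars) for members matched to phosphatases and a kinase, transcription factors, cytochrome P450 enzymes and transporters, in W, S1 and S3. For each member the 3 conditions do not overlap, as the rule requires, and the S3 libraries of GRMZM2G180328 (78.3 and 19.7 FPKM) and the S1 libraries of GRMZM2G126505 (14.3 and 3.62 FPKM) are the widest pairs.

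The 6 transporter homologs had median steps of 1.34 and 1.47 log2 units. GRMZM2G062156, matched to PMT5, a polyol and monosaccharide transporter, had the highest level, at 13.9 and 13.2 FPKM when watered, 41.9 and 40.3 upon S1, and 112 and 96.0 upon S3. GRMZM2G101125, of an amino acid transporter family, had the largest second step of the group at 3.57 log2 units, with 2.36 and 2.03 FPKM when watered, 7.55 and 5.02 upon S1, and 74.3 and 95.5 upon S3. The lower of its S3 libraries stood 9.84 times above its highest S1 library. The others were a heavy metal transport homolog (GRMZM2G132690), a mitochondrial phosphate carrier homolog (GRMZM2G009045, matched to PHT3;2) and 2 members of the major facilitator superfamily (GRMZM2G160430 and GRMZM2G361652), with S3 means from 14.0 FPKM upward.

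Of the 6 members placed with sugars and the cell wall, GRMZM2G340257 stood out in level. It was matched to MAN7, an endo-mannanase of the glycosyl hydrolases that cut mannans of the cell wall, and was at 0.538 and 0.678 FPKM when watered, 12.0 and 10.4 upon S1, and 559 and 478 upon S3. Both libraries of each condition were close, and the steps were 2.92 ± 0.16 and 5.41 ± 0.16 log2 units (limma difference ± SE, n = 2 libraries per condition). GRMZM2G162690 matched trehalase, which cleaves trehalose into glucose, and was at 2.49 and 2.55 FPKM when watered, 23.5 and 11.4 upon S1, and 45.7 and 105 upon S3. GRMZM2G162359, matched to chitinase A, was at 0.682 and 0.717 FPKM when watered, 13.1 and 14.2 upon S1, and 60.5 and 25.5 upon S3. It lies beside GRMZM2G328171, described as xylanase inhibitor protein 1, which met the numeric rule too with steps of 1.27 and 1.38. Both belong to a similar protein family, so reads shared between them are possible. The other listed neighbour of GRMZM2G162359, GRMZM2G162382, had differences of -0.02 and -0.01. The remaining 3 were an endoglucanase homolog (GRMZM2G110735, KOR2), a family 61 glycosyltransferase (GRMZM2G090584) and a beta-glucosidase (GRMZM2G031660), with first steps of 1.10, 1.36 and 1.53.

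The 4 members placed with lipids and wax included GRMZM2G062531, matched to sterol-4alpha-methyl oxidase, an enzyme of sterol synthesis. It was at 2.66 and 0.304 FPKM when watered, 45.0 and 38.8 upon S1, and 54.0 and 410 upon S3. Its first S3 library lay only 1.20 times above its highest S1 library, whereas the second was far above, so the size of its second step (1.81 ± 0.85) rests on 1 library. GRMZM2G149636, matched to KCS11, a 3-ketoacyl-CoA synthase of the kind that elongates fatty acids for wax, was at 1.20 and 1.69 FPKM when watered, 10.7 and 12.3 upon S1, and 34.3 and 30.7 upon S3. GRMZM2G139811, with C2 and GRAM domains, was at 0.0124 and 0.0758 FPKM when watered and 12.1 and 11.5 upon S3. The phospholipase A2 homolog GRMZM2G166971 was at 6.86 and 12.5 FPKM in S3.

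Among the 2 members placed with chaperones, GRMZM2G172230 was matched to ERD1, a chloroplast Clp ATPase first known in Arabidopsis as a gene of early response to dehydration. It was at 8.05 and 18.0 FPKM when watered, 115 and 112 upon S1, and 394 and 223 upon S3, a course with the larger first step. The other was AC210013.4_FG018, matched to an RbcX-like chaperonin, a kind of protein that helps to assemble Rubisco, at 42.7 and 76.3 FPKM in S3. The 6 members placed with proteolysis and ubiquitin held a pair of rhomboid proteases, GRMZM2G055698 and GRMZM2G116514, proteases that cut within membranes. The former was at 26.0 and 24.0 FPKM in S3 and the latter at 59.0 and 53.0, and their larger steps were the second (2.54) and the first (2.24). GRMZM2G156517, matched to the ubiquitin-conjugating enzyme UBC10, was at 9.96 and 11.6 FPKM when watered, 28.8 and 30.7 upon S1, and 74.8 and 63.0 upon S3. GRMZM2G049349, matched to EGY3, of a family of chloroplast membrane proteases, was at 10.4 and 40.1 FPKM in S3. The XBAT31 homolog GRMZM2G113002 and the RING protein GRMZM2G392320, both of families of ubiquitin ligases, had second steps of 1.35 and 2.25. The 2 members placed with RNA or DNA binding were GRMZM2G118104, matched to the mRNA cleavage factor CFIM-25, and GRMZM2G000451, of a DNAse I-like family, at S3 means of 37.1 and 5.77 FPKM.

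The 14 members with other named homologs had median steps of 2.03 and 1.30 log2 units, and 11 of them had the larger first step. GRMZM2G131969, matched to a protein with a BRO1-like domain of endosomal sorting, was the most abundant, at 15.9 and 18.6 FPKM when watered, 201 and 124 upon S1, and 485 and 654 upon S3. Its RefSeq neighbour on chromosome 10, GRMZM2G132218, described as a mitochondrial carrier protein, met the numeric rule with steps of 2.02 and 1.57, whereas its neighbour on the other side, GRMZM2G046952, described as FIP1, had differences of 3.17 and -2.24. GRMZM2G106344, of the DC1 domain proteins, was at 0.713 and 0.386 FPKM when watered, 10.3 and 5.82 upon S1, and 239 and 224 upon S3, with a second step of 4.73. AC197705.4_FG003, of the family of phosphatidylethanolamine-binding proteins, which includes regulators of flowering, was at 0.282 and 0.0824 FPKM when watered, 57.1 and 19.7 upon S1, and 58.4 and 123 upon S3. Its first S3 library was only 1.02 times its first S1 library, so the 2 conditions were barely apart. GRMZM2G396553, matched to arginine decarboxylase, an enzyme of polyamine synthesis, was at 3.35 and 3.40 FPKM when watered, 15.8 and 9.96 upon S1, and 53.1 and 31.6 upon S3. GRMZM2G086714 and GRMZM2G050172 both matched RSH2, a synthase of the alarmone ppGpp in chloroplasts, and had nearly the same course. The first was at 5.17 and 6.78 FPKM when watered, 27.6 and 25.5 upon S1, and 76.4 and 58.6 upon S3, and the second at 1.93 and 3.86 when watered, 15.0 and 11.9 upon S1, and 43.3 and 26.7 upon S3. As both match 1 Arabidopsis protein, reads shared between them are possible. The other 8 of the group, with S3 means from 7.33 FPKM upward, were matched to a P-loop nucleoside triphosphate hydrolase (GRMZM2G058491), a kelch repeat protein (GRMZM2G041959), embryo-specific protein 3 (GRMZM2G061932), an alpha/beta-hydrolase (GRMZM2G133407), a tolB-related protein (GRMZM2G039757), HSPRO2 (GRMZM2G123394), an ARM repeat protein (GRMZM2G442387) and a WD40 repeat protein (GRMZM2G322129). Of these only GRMZM2G442387 and GRMZM2G322129 had the larger second step.

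The 34 members for which the homolog sheets used listed no close homolog held the extremes of the set. Their median level was 1.30, 7.69 and 37.1 FPKM in the 3 conditions in turn, their S3 means ran from 4.48 to 989 FPKM, and the larger step was the first in 17 and the second in 17. GRMZM2G179462 had no entry in these sheets, but the study's text describes it as a putative plasma membrane protein induced by low temperature and ABA. The study also states that it has homologs in the RCI2A family of Arabidopsis, small hydrophobic membrane proteins, so the lack of an entry is not a lack of homologs. With neither W library above 0, it read 2.39 and 0.793 FPKM upon S1 and 577 and 391 upon S3. Its second step, 7.59 ± 0.31 log2 units, was the largest of the set, and its lower S3 library stood 163 times above its highest S1 library. The SE is pooled over the 3 conditions, and the W libraries, both at 0, add no spread to it. GRMZM5G831224 and GRMZM2G339327 had the largest first steps. The former was at 0.140 and 0.122 FPKM when watered, 70.7 and 51.7 upon S1, and 192 and 298 upon S3, and the latter at 0.107 and 0.234 when watered, 91.1 and 32.2 upon S1, and 169 and 348 upon S3. Both were thus near the limit of detection in watered leaves and above 30 FPKM in both S1 libraries. GRMZM2G041493 had large steps in both, 3.04 and 3.85, with 0.481 and 0.350 FPKM when watered, 15.1 and 7.38 upon S1, and 165 and 168 upon S3. GRMZM5G806182 was the most abundant member of all. It was at 78.4 and 67.9 FPKM when watered, 178 and 122 upon S1, and 853 and 1125 upon S3, so that it entered the set at the threshold of the first step and at 2.73 in the second. GRMZM5G801953, at 0.182 FPKM in 1 W library and listed at 0 in the other, was at 1.45 and 1.04 upon S1 and 92.1 and 42.8 upon S3. GRMZM2G111112 and GRMZM2G305066 were listed at 0 in both W libraries as well, and reached 9.63 and 15.6 FPKM and 3.53 and 6.37 FPKM in S3. Of the 8 members matched to a protein of unknown function, AC205471.4_FG007 was the highest, at 2.28 and 4.84 FPKM when watered, 17.4 and 28.0 upon S1, and 1291 and 181 upon S3. The other 7 had S3 means from 11.2 FPKM upward, with GRMZM2G139293 next at 136 and 66.9 FPKM.

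**Figure D4:**
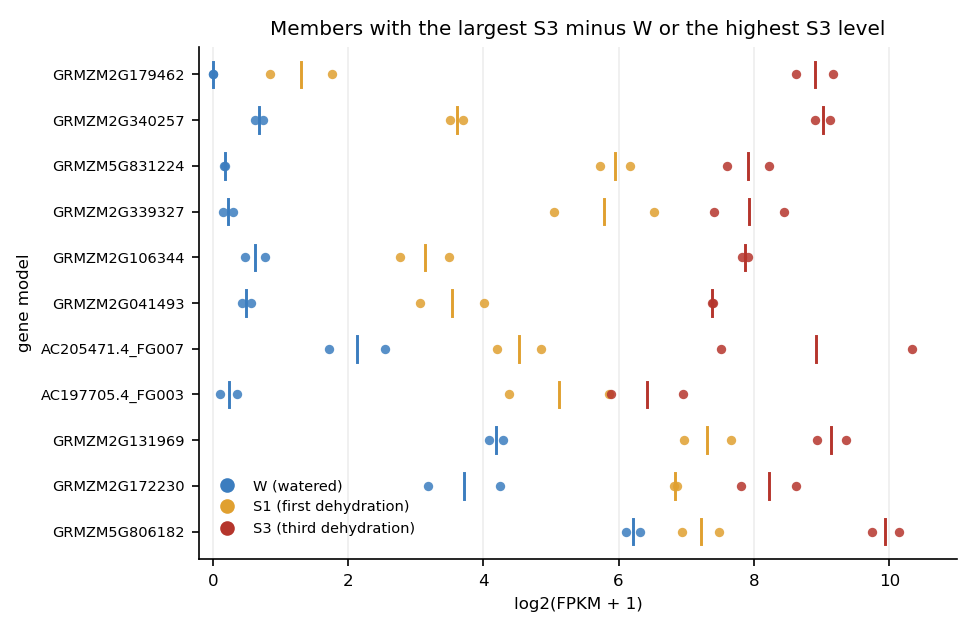
Values of log2(FPKM + 1) in each library (points) with the mean of the 2 libraries (bars) for 11 members that had 1 of the 8 largest S3 minus W differences or 1 of the 8 highest mean S3 levels, ordered by S3 minus W. GRMZM2G179462 runs from listed at 0 in W to 577 and 391 FPKM in S3, whereas GRMZM5G806182 already stood at 78.4 and 67.9 FPKM in W.

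The lowest W levels moved in steps of single reads. In 8 members with both W libraries above 0 and low (under 0.15 FPKM in the first and 0.25 in the second), the W values of the second library relative to the first, after division by the size of 1 read, were ratios of small whole numbers to 3 digits. The ratio was 1 in GRMZM5G831224, 2 in GRMZM2G124229, 2.5 in GRMZM2G339327, 3 in both GRMZM2G308615 and GRMZM2G143640, 7 in GRMZM2G139811, 1.5 in GRMZM2G421946 and 0.5 in GRMZM2G001451. The log2(FPKM + 1) scale gives such low levels little weight, so their fold changes on that scale understate the ratio of FPKM.

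The 2 libraries of a condition lay furthest apart in S3. Among the 99 members the median absolute difference between the 2 libraries was 0.16 log2 units when watered, 0.32 upon S1 and 0.52 upon S3, whereas over all genes tested it was 0.17, 0.20 and 0.23. In S3, 23 members (23.2%) differed by more than 2-fold between the libraries, compared with 3.27% of all genes tested and 20.0% of the 60 described genes of the same course. The largest differences were in GRMZM2G062531 (54.0 and 410 FPKM), AC205471.4_FG007 (1291 and 181), GRMZM2G180328 (78.3 and 19.7) and GRMZM2G329069 (104 and 27.8). Members did not all run one way, with 39 higher in the second S3 library and 60 in the first. Over all genes tested more were higher in the second S3 library (11981 compared with 8139). In S1, 67 members were higher in the first library and 32 in the second, whereas over all genes tested more were higher in the second (11572 compared with 8547). All genes tested include many of low level, and the part of level in these differences was not tested. The rule also asks that W and S1 libraries stay below those of the next condition, with no upper bound on S3. The spread of members in the 3 conditions is therefore not independent of how they were chosen.

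**Figure D5:**
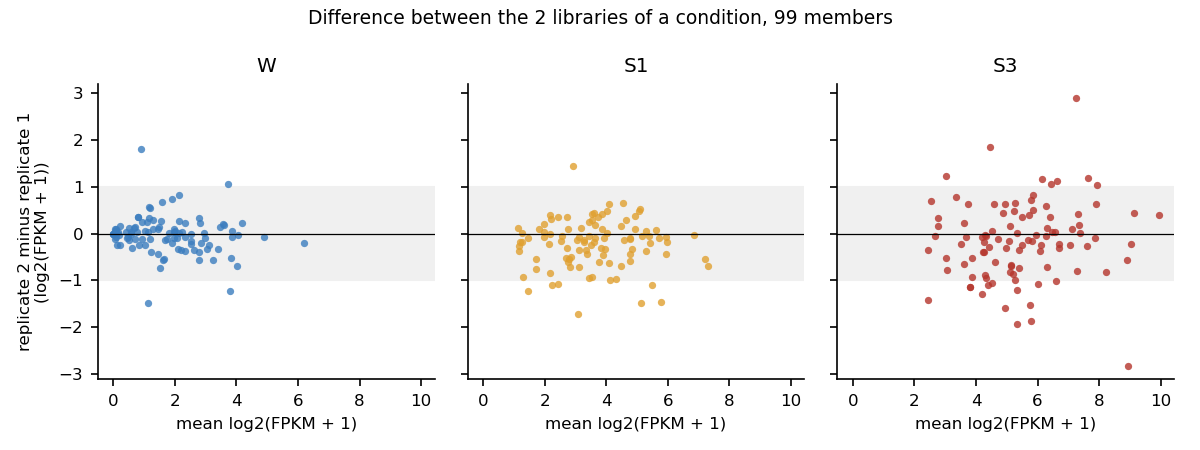
Difference between the 2 libraries of a condition (replicate 2 minus replicate 1, log2(FPKM + 1), y axis) against their mean log2(FPKM + 1) (x axis) for the 99 members in W, S1 and S3. The grey band marks a 2-fold difference, exceeded by 4 members when watered, by 8 upon S1 and by 23 upon S3.

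The genes with a description, none of which is a member, gave the wider setting. All 3 described 9-cis-epoxycarotenoid dioxygenases, the rate-limiting enzymes of ABA synthesis, were called higher in S1 against W, and 2 of the 3 were called lower in S3 against S1. Of 9 tested genes described as protein phosphatase 2C, 4 were called higher upon S1, and 2 higher and 1 lower in S3 against S1. Of 13 tested genes described as NAC domain, 3 were called higher upon S1 and 6 in the second step. Of 20 tested cytochrome P450 genes, 1 was called higher and 1 lower upon S1, and 5 higher and 4 lower in the second step. Aquaporins, the water channels, had 11 of 22 called higher and 1 lower upon S1, and 4 higher and 2 lower in the second step. Of 6 late embryogenesis abundant genes or dehydrins, which protect proteins and membranes of drying cells, 3 were called higher upon S1, and 1 was called higher and 2 lower in the second step. Of 33 heat shock or chaperone genes 6 were called higher upon S1, and 1 higher and 1 lower in the second step. Of 12 senescence-associated genes 3 were called higher upon S1, and 3 higher and 1 lower in the second step. Of 11 CIPK genes 3 were called higher and 1 lower upon S1, and 4 higher in the second step. Of 6 lipid-transfer proteins 1 was called higher upon S1 and 4 in the second step, of 2 HVA22 genes 1 and 2, of 2 bZIP genes 2 and 1, and of 3 homeobox-leucine zipper genes 1 and 1. Of 3 SAPK or SRK2 kinases 1 was called higher upon S1, and 1 higher and 1 lower in the second step, and of 16 sugar or amino acid transporters 1 was called higher upon S1, and 2 higher and 1 lower in the second step. Both tested genes of the raffinose family were called higher upon S1 and lower in the second step, and of 3 trehalose genes 1 was called higher and 1 lower in the second step. The words for ABA hydroxylases, ABA receptors and proline synthesis matched no description, the glycosyltransferases matched were not among the genes tested, and the 1 gene described as an E3 ubiquitin ligase was not called. In these comparisons 7.50% and 9.34% of all genes tested were called higher. Of the tested genes with a description 1.19% met the numeric rule, and of those without one 0.682%.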

How the data were processed

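Leaf RNA-seq was analysed in 3 conditions with 2 libraries each, which the study calls independent biological samples. The authors aligned reads to B73 RefGen_v2 with bowtie and tophat, and made the deposited FPKM per gene and library with cuffdiff and the 5b filtered gene models. The submitters' processing notes name CASAVA 1.8.2, TopHat 0.12.8 and Cuffdiff. The S3 libraries came from another cuffdiff run, and the scales of the runs differ by a ratio of 0.993. The authors' log2 fold changes and q-values in the series table were not used. By the study's account, read length differs between replicates 1 and 2.

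FPKM were used as deposited, as log2(FPKM + 1) (pseudocount 1). limma 3.58.1 in R 4.3.3 (lmFit, eBayes with trend, Benjamini-Hochberg) fitted all 6 libraries with a mean per condition, over the 20135 genes that reached 1 FPKM in 2 or more libraries, and was tested on simulated data. Alternatives were other scalings, pseudocounts, filters and thresholds, a replicate block and each library left out.

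Members and lists were chosen with earlier results of these data known. Named were the members with the largest S3 minus W difference (8), the highest S3 level (8), the largest first (4) and second (4) steps, those nearest the thresholds (3 on each side), the 2 highest in S3 of each group of homologs, those listed at 0 in W, and those the study names. Other members were named, and groups assigned, after values were seen. Family lists were matched to the deposited descriptions, with acronyms in capitals. RefSeq (assembly Zm-B73-REFERENCE-NAM-5.0) matched 18773 of 39634 models and served for names and gene order. Promoters and proteins were not analysed here. Python 3.11.15, pandas 2.3.3, numpy 2.4.6 and matplotlib 3.10.9 were used.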

Additional observations from a re-analysis of the deposited data

How the results depend on the processing

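The number of members, the medians of the 2 steps and the counts of genes called were recomputed with other scalings, pseudocounts, filters and thresholds and with each library left out. The members were taken with both steps at least 1 log2 unit. That their median steps kept their sign in each follows from this choice and is no test. The split of all genes into higher and lower calls turned in S3 against S1 under both scalings. It turned in S3 against W with upper-quartile scaling, as given with the main counts. The set of 99 became 210 with a pseudocount of 0.1 and 61 with 2, and it held 95 to 106 genes when 1 library was left out, of which 76 to 96 were among the 99. Of the 99, 76 stayed with median-of-ratios scaling, 71 with upper-quartile scaling and 97 with S3 multiplied by the run ratio. With a pseudocount of 0.1 the median first step was 2.11 in place of 1.55, and the median second step 1.62 in place of 1.47. When 1 library was left out, the median first step lay between 1.51 and 1.68 and the median second step between 1.41 and 1.61. Without the fold-change threshold 3209, 7504 and 8316 genes were called in S1 against W, S3 against S1 and S3 against W, in place of 1820, 3723 and 4446. With 1 library left out these counts were 1235 to 1916, 3443 to 4011 and 4144 to 4659. With the replicate block they were 1784, 3693 and 4425, and 82, 94 and 99 members were called higher. The deviations of libraries that share a replicate number correlated across genes at 0.14 (W with S1), -0.09 (W with S3) and 0.06 (S1 with S3), and in the 99 members at 0.08, -0.50 and -0.36. Libraries of 1 replicate number also share a read length by the study's account, but whether they share a batch is not given in the sources used here, and they were not treated as pairs. The cause of these changes was not tested. The promoter alternative was not run, since no promoter table was used here. FPKM keep no read numbers, so members near the limit of detection in W, and fold changes against a value listed at 0, have no count-based limit.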
